A study of Homo sapiens with 9 samples.

Results

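Without doxycycline, the inducible AML1-ETO line of U937 cells already differed from the empty vector line in a small set of genes. The comparison rests on 2 of the 9 RNA-seq libraries of the series, U937-AE 0h and U937-CTR 0h, and covers the 11319 of 60623 listed genes whose mean level over both libraries was at least 1 FPKM (fragments per kilobase of exon, scaled to the size of the library). U937 is an established human monocytic cell line. The AE line is clone #4, transduced with a retroviral pRetrox-Tet3G vector that carries an N-terminally HA-tagged AML1-ETO cDNA for induction by doxycycline. The CTR line carries the same vector without a cDNA, and the EG line, used only as a further reference, is clone #14 with HA-tagged ETO2-GLIS2. All lines were puromycin-selected derivatives of one parental line, and each condition (0h, which carries doxycycline as its treatment label and was read as uninduced from its time label, and 12h and 48h of 5 ug/ml doxycycline) is 1 library. Each fusion line is 1 clone obtained by limiting dilution, and per the methods the lines were kept in Tet-free serum to limit expression before induction. With 1 clone a line, a difference that belongs to the clone and a difference that belongs to its uninduced construct cannot be told apart from these libraries, and no test between groups was possible. Intervals given below are 95% exact intervals for the ratio of read numbers and cover counting error only.

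AML1-ETO is the fusion made by the t(8;21) translocation of acute myeloid leukaemia. It joins the DNA-binding Runt domain of RUNX1 (AML1) to nearly all of RUNX1T1 (ETO), a corepressor that recruits NCoR/SMRT and histone deacetylases, and it is known to hold back myeloid differentiation. Inducible promoters often pass some transcript without the inducer, and single clones of one cell line are known to drift apart in which genes they keep silent, so an uninduced line can differ from its control in either way.

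Library depth was similar, with 16581210 reads behind AE 0h and 16267437 behind CTR 0h. Of 17 myeloid markers, 14 were above 1 FPKM in both libraries, among them LYZ (970 FPKM in AE 0h and 519 in CTR 0h), ELANE (520 and 428) and ITGB2 (311 and 242). The exceptions were MPO, at 0.154 and 0.157 FPKM, CD14, at 0 and 0.0373 FPKM, and CD68, which was listed at 0 in both. Of 58 markers of T, B, erythroid, megakaryocytic, epithelial or fibroblast cells, 36 were at 0 in both libraries and 5 had a mean of at least 1 FPKM, with none past 2-fold.

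Reads of RUNX1T1 were present at a low level without inducer. RUNX1T1 (GRCh38, chromosome 8, 91954967-92103385), whose coding exons the fusion cDNA carries, had 115 reads (0.512 FPKM) in AE 0h, while CTR 0h, CTR 12h and all 3 EG libraries had no read and CTR 48h had 5 reads. The count is of the whole gene, so transcript of the construct and of the clone's own RUNX1T1 locus cannot be told apart. The FPKM values imply scaling to 13535 exon bases, while the cDNA carries coding exons only. They would thus understate the level per base of any transcript from the construct. Against a floor of 3 reads in CTR 0h, the uninduced AE line was at least 37.6-fold higher. After doxycycline the AE line reached 22.2 FPKM at 12h and 28.7 FPKM at 48h. The uninduced level was thus 2.31% (interval 1.90% to 2.78%) of the 12h level and 1.78% (1.47% to 2.15%) of the 48h level. With a mean under 1 FPKM, RUNX1T1 is not among the 11319 genes compared. RUNX1 itself, counted from its endogenous locus and from the part in the fusion alike, was not higher in the AE line, at 17.4 FPKM against 19.3 FPKM (log2 ratio -0.15, interval -0.21 to -0.09). It did not rise after doxycycline either, at 17.8 FPKM in AE 12h and 16.8 FPKM in AE 48h. The RUNX1 level at 0h therefore cannot show whether transcript of the construct was present.

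Most genes had nearly the same level in both uninduced lines. Over the 9505 protein-coding genes compared, the median log2 ratio, taken on FPKM with 0.1 added, was 0.01, the middle 90% lay between -0.38 and 0.54, and 8961 genes (94.3%) were within 1.5-fold. By the 2-fold rule 101 protein-coding genes were higher in AE 0h (1.06%) and 29 were lower (0.305%). At the edge of the expression filter, CRLF2 was just inside (0.639 FPKM in AE 0h and 1.36 in CTR 0h) and DDIT3 just outside (1.20 and 0.800 FPKM). Over all 11319 genes the counts were 281 higher (2.48%) and 209 lower (1.85%). The surplus outside protein-coding genes rested largely on thin counts: 50 of the higher and 52 of the lower genes were lncRNAs, 30 and 29 were processed pseudogenes, and 64 and 66 were short RNAs (snRNA, miRNA, snoRNA, scaRNA and misc_RNA). In 96 of the 281 and 97 of the 209, both libraries together held fewer than 20 reads. The read-ratio interval excluded equal levels for 183 of 265 higher genes with recovered reads and for 110 of 197 lower ones. Among the 6468 protein-coding genes with a mean of at least 5 FPKM, 21 were higher (0.325%) and 4 were lower (0.0618%).

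**Figure D1:**
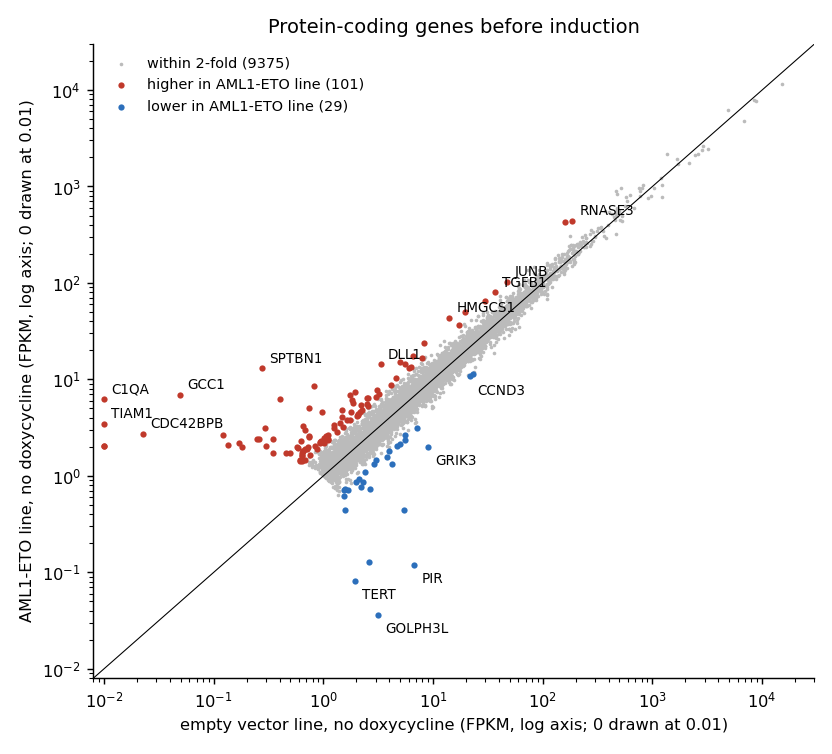
Level of each of the 9505 protein-coding genes in the uninduced empty vector line (x axis, FPKM, log scale) and in the uninduced AML1-ETO line (y axis, FPKM, log scale), 1 point a gene. The 101 genes at least 2-fold higher in the AML1-ETO line (red) and the 29 lower (blue) lie apart from a narrow diagonal, and several, such as TIAM1 at 0 against 3.46 FPKM, were close to silent in one line.

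The same 2-fold rule applied between other library pairs places this distance. EG 0h differed from CTR 0h in 246 of 9478 protein-coding genes (2.60%), and AE 0h differed from EG 0h in 283 of 9513 (2.97%), against 130 of 9505 (1.37%) for AE 0h and CTR 0h. The AE line at 48h differed from its own 0h library in 2185 of 9765 protein-coding genes (22.4%), and the empty vector line at 12h from its own 0h library in 226 of 9598 (2.35%). The uninduced AE line was therefore closer to the empty vector line, by this count, than either was to the EG line.

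The 12h and 48h libraries of both lines show which differences recurred after doxycycline, although they are not replicates of the 0h comparison. Of the 101 protein-coding genes higher at 0h, 65 (64.4%) were again at least 2-fold higher in AE than in CTR at 12h and 63 (62.4%) at 48h, where 2.11% and 6.70% of all compared protein-coding genes were. None was 2-fold lower at 12h and 6 were at 48h. Of the 29 lower genes, 18 were lower again at 12h and 15 at 48h, against 2.09% and 11.8% of all. At all 3 times, 50 protein-coding genes were higher and 15 lower, out of 66 and 28 genes of every type. Across the 6468 protein-coding genes of at least 5 FPKM, Pearson's r between the log2 ratio at 0h and that at 12h was 0.52, and with that at 48h 0.18; genes of one library pair share its depth and handling, and r is given as a description.

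A few genes were far apart between the lines at every time. By a rule chosen after the values were seen, that every AE library be at least 4-fold above, or below, every CTR library, 15 of the 9505 protein-coding genes stood above (0.158%) and 4 below (0.0421%). The same rule gave 3 genes above (0.0317%) and 3 below (0.0317%) for EG against CTR, and 10 (0.105%) and 5 (0.0526%) for AE against EG.

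SPTBN1, which encodes the non-erythroid beta-spectrin of the membrane skeleton, had 13.1, 10.6 and 12.9 FPKM in the AE line at 0h, 12h and 48h. The empty vector line had 0.273, 0.644 and 0.475 FPKM, and the EG line 0.197, 0.272 and 0.635 FPKM. All AE values lay far above all others, and the log2 ratio at 0h was 5.15 (read-ratio interval 5.27 to 5.92, computed without the added 0.1). TIAM1, an exchange factor that activates RAC1, had 3.46, 3.09 and 1.69 FPKM in the AE line, while CTR 0h had no read against 528 in AE 0h. CDC42BPB, the CDC42-binding kinase MRCK beta, had 2.74, 2.53 and 4.17 FPKM in the AE line and at most 0.114 FPKM in the empty vector line. CLCN4, a chloride/proton exchanger, and RBM41, an RNA-binding protein, both X-linked, had 2.05 and 2.02 FPKM in AE 0h and no read in CTR 0h or in any EG library.

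In the opposite direction, PIR, which encodes the iron-binding nuclear protein pirin, had 6.73, 3.66 and 4.09 FPKM in the empty vector line and 6.54, 3.16 and 5.28 FPKM in the EG line. In the AE line it had 0.120, 0 and 0.0262 FPKM, which is 5 reads at 0h and no more than 1 later. GOLPH3L, a Golgi protein, had 172 reads in CTR 0h and 2 in AE 0h (3.17 and 0.0362 FPKM). TERT, the catalytic subunit of telomerase, was at 1.95 FPKM in CTR 0h, 0.938 FPKM in EG 0h and 0.0818 FPKM in AE 0h. ERICH4 completed this set with 2.59 and 0.127 FPKM in CTR 0h and AE 0h.

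Which line was the unusual one differed between genes. Of the 15 genes higher in AE, 9 were also at least 4-fold lower in every EG library than in every AE library, so that the AE line stood alone. For GCC1 and CARD16 the EG line was at the AE level: GCC1, a trans-Golgi coiled-coil protein, had 6.96 FPKM in AE 0h, 5.27 FPKM in EG 0h and 0.0495 FPKM in CTR 0h, so here the empty vector line was the one apart. CARD16 lies beside CASP1 and shares sequence with it, so its counts are uncertain. C1QA, ADGRB1, FPR2 and TLR2 were between. TLR2, a receptor for bacterial lipoproteins, had 5.04 FPKM in AE 0h, 3.68 FPKM in EG 0h and 0.742 FPKM in CTR 0h. Of the 4 lower genes, PIR and GOLPH3L were also at least 4-fold higher in every EG library than in every AE library.

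The nearest expressed genes showed no such gap. For each of the 19 genes the nearest positioned protein-coding gene of at least 1 FPKM on either side was taken, giving 38 neighbours, of which 20 lay within 100 kb and the farthest 2856 kb away; genes under 1 FPKM in between were not examined. None of the 38 was past 2-fold, beside 130 of the 9505 compared protein-coding genes (1.37%). With so small a share, a count of none among 38 says little about the neighbours. Their log2 ratios ran from -0.56 (PIGA, beside PIR) to 0.91 (DMAC2, beside ERICH4) with a median of 0.11. WWC3, 12.5 kb from CLCN4, was at 12.3 FPKM in AE 0h and 12.9 FPKM in CTR 0h, and TRAF3, 20.9 kb from CDC42BPB, at 10.9 and 9.81 FPKM. Over 6691 genes of at least 5 FPKM with a RefSeq position, chromosome medians of the centred log2 ratio ran from -0.04 (chromosome 13) to 0.06 (chromosome 19). Of 218 windows of 10 Mb holding at least 10 such genes, the medians ran from -0.19 to 0.15 and none reached 0.5.

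The promoters of 6 of these genes are shown because they carry this gap against both other lines. They are the 4 genes with the largest difference among the 9 that were also at least 4-fold above every EG library. The other 2, PIR and GOLPH3L, were also at least 4-fold below every EG library. Each line gives the 250 bases before the annotated start, 5′ to 3′ on the gene's strand, from RefSeq on GRCh38.p14, with CG dinucleotides, the sites of DNA methylation, in capitals. They lie at chr21:31559088-31559337 (minus strand), chr2:54456077-54456326 (plus strand), chr14:103057550-103057799 (minus strand), chrX:10156725-10156974 (plus strand), chrX:15493334-15493583 (minus strand) and chr1:150697155-150697404 (minus strand). SPTBN1 has 2 promoters in the table, and the first was used.
TIAM1: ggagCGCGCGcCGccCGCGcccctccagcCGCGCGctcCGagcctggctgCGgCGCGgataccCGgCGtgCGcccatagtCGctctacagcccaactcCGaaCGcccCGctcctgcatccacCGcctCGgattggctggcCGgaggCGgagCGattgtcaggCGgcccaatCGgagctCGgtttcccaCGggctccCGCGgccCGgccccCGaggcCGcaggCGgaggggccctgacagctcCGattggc
SPTBN1: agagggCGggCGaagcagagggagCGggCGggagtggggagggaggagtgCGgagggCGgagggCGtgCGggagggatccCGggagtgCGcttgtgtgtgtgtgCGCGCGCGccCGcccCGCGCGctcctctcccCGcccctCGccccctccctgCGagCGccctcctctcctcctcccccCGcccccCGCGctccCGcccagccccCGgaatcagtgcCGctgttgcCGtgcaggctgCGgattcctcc
CDC42BPB: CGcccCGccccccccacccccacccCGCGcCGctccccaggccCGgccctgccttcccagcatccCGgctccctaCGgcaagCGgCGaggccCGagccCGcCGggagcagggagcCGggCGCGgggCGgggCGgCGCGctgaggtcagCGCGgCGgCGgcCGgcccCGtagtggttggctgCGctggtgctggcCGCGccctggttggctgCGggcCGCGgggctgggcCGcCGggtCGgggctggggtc
CLCN4: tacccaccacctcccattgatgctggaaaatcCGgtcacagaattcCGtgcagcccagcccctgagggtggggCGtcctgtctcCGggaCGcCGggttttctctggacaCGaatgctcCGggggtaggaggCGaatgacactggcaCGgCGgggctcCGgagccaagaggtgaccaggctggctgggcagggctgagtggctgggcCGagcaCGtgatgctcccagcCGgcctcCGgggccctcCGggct
PIR: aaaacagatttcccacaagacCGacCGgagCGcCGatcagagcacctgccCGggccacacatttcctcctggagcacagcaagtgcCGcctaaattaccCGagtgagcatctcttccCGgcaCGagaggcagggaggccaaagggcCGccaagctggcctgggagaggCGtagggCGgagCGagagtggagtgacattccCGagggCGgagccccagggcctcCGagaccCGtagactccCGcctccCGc
GOLPH3L: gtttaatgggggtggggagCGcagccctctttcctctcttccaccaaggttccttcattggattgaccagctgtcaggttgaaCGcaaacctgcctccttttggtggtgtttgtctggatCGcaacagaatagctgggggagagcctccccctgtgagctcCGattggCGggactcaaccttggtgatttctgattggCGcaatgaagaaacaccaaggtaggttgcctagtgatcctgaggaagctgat

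The number of CG dinucleotides differed widely among them, at 36 in TIAM1, 35 in CDC42BPB, 30 in SPTBN1, 19 in PIR, 17 in CLCN4 and 6 in GOLPH3L. Over the 17 such genes with a promoter in the table the median was 20, against 22 over the 7856 promoters of compared protein-coding genes and 11 over all 35116. The core RUNX motif TGTGGT, searched on both strands, was in none of the 6 sequences printed and in 1 of the 17 (LRRC3), a share of 5.88% against 7.29% of compared protein-coding genes and 3855 of all 35116 promoters. DNA methylation and factor binding were not measured in these files.

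Among well-expressed genes the differences were smaller. By the rule of at least 5 FPKM and a 2-fold difference in one direction at all 3 times, 11 protein-coding genes were higher and 3 were lower, out of 6468 (21 and 4 at 0h alone). SPTBN1 led the higher set. DLL1, a Notch ligand, followed with 14.4 FPKM in AE 0h and 3.32 FPKM in CTR 0h (log2 ratio 2.09, interval 1.90 to 2.35). At 12h it was at 9.89 against 4.38 FPKM and at 48h at 12.7 against 3.67 FPKM, so every AE value exceeded every CTR value. HMGCS1, which makes HMG-CoA for cholesterol synthesis, was at 43.6 against 14.1 FPKM at 0h and fell in both lines with time, to 5.95 against 1.94 FPKM at 48h, with log2 ratios of 1.62, 1.42 and 1.57. HMGCS1 alone of 21 cholesterol synthesis genes was past 2-fold, where 1.06% of compared protein-coding genes were 2-fold higher. The list's median log2 ratio was -0.10.

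CXCL8 (interleukin-8) was at 15.0 FPKM in AE 0h, 12.6 in EG 0h and 5.02 in CTR 0h. ECM1, a secreted matrix protein, was at 23.6, 16.6 and 8.29 FPKM. For both, EG 0h lay nearer to AE 0h than to CTR 0h. The others were RTL8C, IFI6, CORO1B, KREMEN2, NECTIN2 and MELTF, with log2 ratios between 1.05 (MELTF) and 1.39 (RTL8C). RTL8C was listed at 0 in all EG libraries and has close paralogs, so its value is uncertain. IFI6, an interferon-stimulated gene, was at 49.9 FPKM in AE 0h and 66.9 FPKM in EG 0h against 19.3 FPKM in CTR 0h, and its direction turned when EG was the reference. In AE 48h, CXCL8 was at 113 FPKM, ECM1 at 53.7, IFI6 at 1838 and CORO1B at 38.7, the last up from 10.3 at 0h. CTR 48h had 5.34, 5.90, 44.8 and 5.56 FPKM. RTL8C, KREMEN2, NECTIN2 and MELTF were also higher in AE 48h than in AE 0h, while SPTBN1, DLL1 and HMGCS1 were not.

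The 3 lower genes were GRIK3, CCND3 and TMEM216. GRIK3, a kainate-type glutamate receptor subunit, was at 1.98 FPKM against 8.98 FPKM at 0h (log2 ratio -2.13, interval -2.36 to -2.01), 0.938 against 6.72 at 12h and 0.213 against 3.25 at 48h. CCND3, cyclin D3 of the G1 phase, was at 10.7 FPKM against 21.5 FPKM, but EG 0h was at 9.99 FPKM, so the AE line did not stand alone. TMEM216, a protein of the ciliary transition zone, was at 3.14 FPKM against 7.09 FPKM, with 8.11 FPKM in EG 0h.

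G3BP1, a core protein of stress granules named after its values were seen, differed by a similar ratio at each time. It had 11.5, 11.9 and 11.7 FPKM in the AE line, 23.2, 21.1 and 21.3 FPKM in the empty vector line and 22.7, 22.6 and 21.1 FPKM in the EG line. Its log2 ratio was -1.01 (interval -1.09 to -0.95) at 0h, -0.81 at 12h and -0.86 at 48h, just inside 2-fold at the later times. All 3 AE libraries were lower than the other 6.

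Myeloid gene lists differed by less than 2-fold for nearly every member. Of 15 azurophil granule genes 13 were higher in AE 0h, with a median log2 ratio of 0.45, beside 0.01 over all compared protein-coding genes, and 2 of the 15 passed 2-fold. These were RNASE3, the eosinophil cationic protein, at 443 against 185 FPKM, and CFD, complement factor D, at 65.4 FPKM in AE 0h with a log2 ratio of 1.12 (interval 0.98 to 1.27). PRTN3 (proteinase 3) was at 902 against 469 FPKM and LYZ (lysozyme) at 970 against 519 FPKM, inside 2-fold. Their summed level was 6074 FPKM in AE 0h, 3724 in CTR 0h and 5663 in EG 0h, and against EG 0h the list's median was -0.06, with 6 genes above and 9 below. By the sum the empty vector line was thus the low one of the 3. This did not hold for every gene: PRTN3 was at 327 FPKM in EG 0h, and MS4A3 at 61.3 FPKM in EG 0h against 86.0 in CTR 0h. At 48h the same list stood at a median of -1.97 against CTR 48h.

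The 17 immediate early genes of the AP-1 and EGR families, which stimuli switch on within minutes, had a median of 0.50. Of the 17, 15 were higher, beside 51.1% of the 9446 protein-coding genes named with the azurophil list. Past 2-fold were 3, beside 1.06% of the 9505 compared protein-coding genes. These 3 were JUNB, at 103 FPKM against 47.2 FPKM, FOSB, at 5.47 against 2.20 FPKM, and IER3, at 1.88 against 0.683 FPKM. Here the EG line was low as well: its values were 37.4 FPKM for JUNB and 1.61 FPKM for FOSB, and all 17 genes were higher in AE 0h than in EG 0h (median 0.80). DUSP1, a phosphatase that switches off MAP kinases, was at 7.49 FPKM in AE 0h, 3.76 FPKM in CTR 0h and 3.72 FPKM in EG 0h, just inside 2-fold. Several of these genes changed far more with time, in every line. FOS went from 135 to 9.96 FPKM between 0h and 12h in the AE line, from 73.1 to 3.01 in CTR and from 69.0 to 5.60 in EG. EGR1 fell in all lines too, while ATF3 and NR4A1 did not fall in CTR.

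Chemokines and cytokines had a median of 0.40 over 13 genes, of which 3 were 2-fold higher (CXCL8, TNF and TGFB1), beside 1.06% of compared protein-coding genes. TNF was at 5.57 against 2.49 FPKM. TGFB1, a growth factor that restrains immune cells, was at 80.2 FPKM in AE 0h, 36.6 in CTR 0h and 32.3 in EG 0h, and stayed higher at 12h (68.4 against 40.3) and 48h (66.7 against 40.9), though inside 2-fold.

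Monocyte and macrophage surface proteins had a median of 0.30 over 16 genes with only TLR2 past 2-fold, MHC class I 0.26 over 16 with none, and integrins and homing molecules 0.21 over 17 with none. Myeloid transcription factors had a median of 0.09 over 21 with none past 2-fold; CEBPA, needed for granulocyte development, was at 98.5 against 61.0 FPKM. The S100 and annexin list had a median of 0.25, with all 13 members above 0 and S100A9 alone past 2-fold (4.63 against 0.966 FPKM). The 22 AML1-ETO partners and corepressors had a median of 0.01, with none past 2-fold. Over all compared protein-coding genes, 1.06% were 2-fold higher and 0.305% lower.

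Growth-related lists lay on the other side. Of 33 DNA replication genes 31 were lower in AE 0h, where 51.1% of the 9446 protein-coding genes given above lay above 0. Their median was -0.44 and none passed 2-fold. UHRF1, which guides maintenance methylation of DNA, was at 18.9 against 35.9 FPKM, and MCM6, of the replicative helicase, at 67.4 against 110 FPKM. EG 0h was at 24.0 and 65.4 FPKM, and the list's median against EG 0h was -0.08, so the empty vector line was again the one apart. The 20 genes of the ATF4 stress response and serine synthesis had a median of -0.31, with 19 lower; PHGDH, the first enzyme of serine synthesis, was at 28.7 FPKM in AE 0h, 49.4 FPKM in CTR 0h and 28.7 FPKM in EG 0h. Mitosis genes (median -0.11 over 27) and genes of the mitochondrial genome (-0.25 over 13) were lower by less, and none passed 2-fold.

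The baseline differences were also set beside the direction of change seen after induction. Leak of the construct as a cause of any likeness was not tested. Responding genes were taken from 4 libraries not used in the baseline comparison: the change from 12h to 48h in the AE line minus that in the empty vector line, called the net late change here. Of 11031 genes past the filters, 1231 fell at least 2-fold by this measure (11.2%) and 750 rose (6.80%). The measure misses genes whose whole response was over by 12h, and RUNX1T1 itself had a net late change of 0.06. It equals the AE over CTR log2 ratio at 48h minus that at 12h. A gene higher in AE at 12h is thus tilted towards a late fall, and a lower gene towards a late rise. Across protein-coding genes of at least 5 FPKM, r between the 0h and 12h ratios was 0.52. The late classes were therefore not chosen independently of the baseline.

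Genes that later fell did not have a lower median at baseline. Among 947 protein-coding genes with a late fall, 6 were 2-fold lower in AE 0h (0.634%, beside 0.296% of all 9446) and 22 were higher (2.32%, beside 1.03%). Their median log2 ratio at 0h was 0.07 and 562 (59.3%) lay above 0, where the median of all was 0.01 and 51.1% lay above. In the 202 that fell at least 4-fold the median was 0.16 and 67.3% lay above 0. The tilt of the measure described above pushes the falling class in this same direction.

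Genes that later rose had 27 of 489 higher at baseline (5.52%) and 7 lower (1.43%), with a median of 0.04. The 67 that rose at least 4-fold had 8 higher, 2 lower and a median of 0.15. With the filter of 1 FPKM, then, the shares past 2-fold in both late classes were above those of all genes in both directions. Both medians were slightly positive. Over all 11031 genes of every type, 54 of the 1231 falling genes were higher and 43 lower at baseline, and 55 of the 750 rising genes were higher and 44 lower, beside 1.95% higher and 1.46% lower of all 11031. At a mean of at least 5 FPKM, 7 of 675 falling genes were higher and 1 lower. Of 230 rising genes, 9 were higher and 3 lower. Over all 6678 such genes 26 were higher and 8 lower, so the falling class then had a lower share near that of all.

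**Figure D2:**
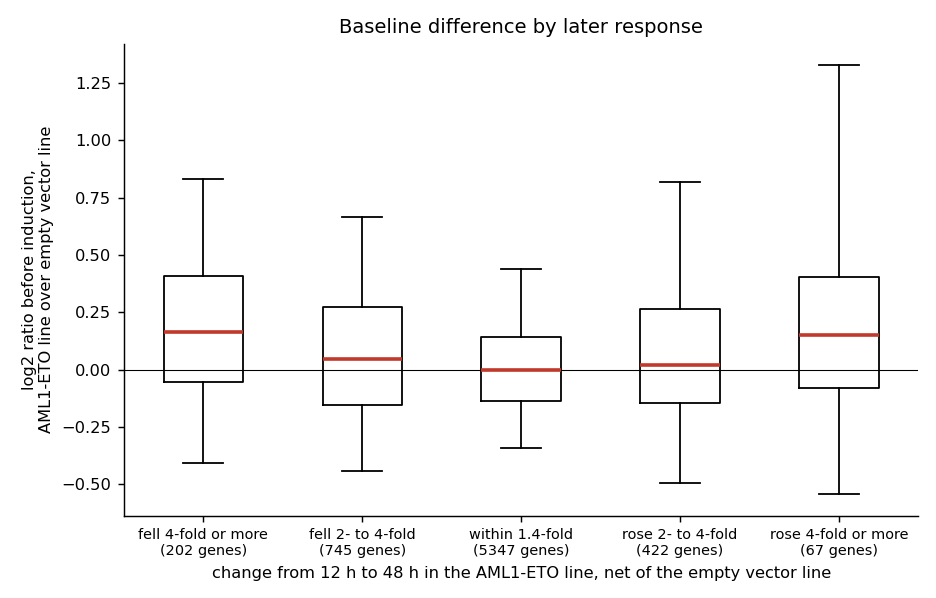
Log2 ratio of the AML1-ETO line over the empty vector line before induction (y axis) for protein-coding genes grouped by their net change from 12h to 48h (x axis, number of genes in brackets). Boxes span the quartiles with the median in red and whiskers reach the 5th and 95th percentiles; the medians were 0.16 in the 202 genes that fell 4-fold or more and 0.15 in the 67 that rose 4-fold or more.

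The 5 protein-coding genes with the greatest late fall, at a mean of at least 5 FPKM over the 12h and 48h libraries of both lines, were each higher in the uninduced AE line than in the empty vector line, but not all than in the EG line. RNASE3 was at 443 FPKM against 185 FPKM before doxycycline and at 4.65 against 94.5 FPKM at 48h. S100A4, a calcium-binding protein of motile cells, was at 159 against 109 FPKM and then at 8.13 against 222 FPKM. Against EG 0h the log2 ratios were 0.34 for RNASE3, -0.82 for S100A4, -0.77 for RETN (resistin), -0.20 for NINJ1 and 0.04 for LSP1. Against the empty vector line, RETN, LSP1 and NINJ1 had baseline log2 ratios of 0.36, 0.48 and 0.33 and ratios of -6.71, -6.17 and -6.32 at 48h.

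Of the 5 protein-coding genes with the greatest late rise among the compared genes, at a mean of at least 5 FPKM over the 12h and 48h libraries and all interferon-stimulated, 3 were lower at baseline. OAS3, a sensor of double-stranded RNA, was at 2.63 against 5.56 FPKM before doxycycline (log2 ratio -1.05, interval -1.27 to -0.89) and at 102 against 7.71 FPKM at 48h. IFIT3 and USP18 had baseline ratios of -0.35 and -0.26, with intervals that include 0. IRF7 had 0.35. SAMD9L, an antiviral factor, was higher at 2.40 against 0.344 FPKM, with EG 0h at 2.11 FPKM. Over 25 interferon-stimulated genes the baseline median was 0.12, with 2 higher (SAMD9L and IFI6) and 1 lower (OAS3). Of all compared protein-coding genes, 1.06% were higher and 0.305% lower. The median of the 25 genes at 48h was 3.18.

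A set of single genes chosen with earlier results of these data known was compared in the same way. SELPLG, the P-selectin ligand, was at 25.2 FPKM in AE 0h against 29.8 in CTR 0h and 24.1 in EG 0h, and at 0.0527 FPKM after 48h of induction. LAT2, an adaptor of immune receptors, was at 35.8 against 36.3 FPKM, and CXXC5, a CXXC zinc finger protein, at 29.7 against 29.9 FPKM, with intervals that include 0. Both were under 1 FPKM in AE 48h.

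SPI1, which encodes PU.1, was higher before induction, at 92.6 FPKM against 67.0 FPKM (log2 ratio 0.47, interval 0.39 to 0.55), and at 11.9 against 97.3 FPKM at 48h. EG 0h was at 88.0 FPKM, near AE 0h. CEBPB, a monocyte transcription factor, was at 30.4 FPKM (log2 ratio 0.53, interval 0.38 to 0.68), and below the empty vector line at 12h and 48h. CBFA2T3 (ETO2) and GLIS2, the genes of the other fusion, had baseline log2 ratios of 0.14 and 0.23.

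CTTN (cortactin), an actin-binding protein, was at 0.929 FPKM in AE 0h, 0.858 in CTR 0h and 0.944 in EG 0h, and at 30.5 FPKM in AE 48h. OAS1 was lower at baseline, with 21 reads against 56 (0.256 and 0.697 FPKM), and at 28.5 against 1.20 FPKM at 48h; like CTTN it had a mean under 1 FPKM and is not among the compared genes. FCAR, the Fc receptor for IgA, named after its values were seen, differed the other way. It was at 3.01 against 0.684 FPKM at 0h, 31.1 against 0.993 at 12h and 56.3 against 1.84 at 48h. EG 0h was at 1.65 FPKM. The baseline difference of FCAR thus had the direction of the later one. CXCL8, ECM1, IFI6 and CORO1B above did too, but the rule that picked them asked for the same direction at all 3 times.

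**Figure D3:**
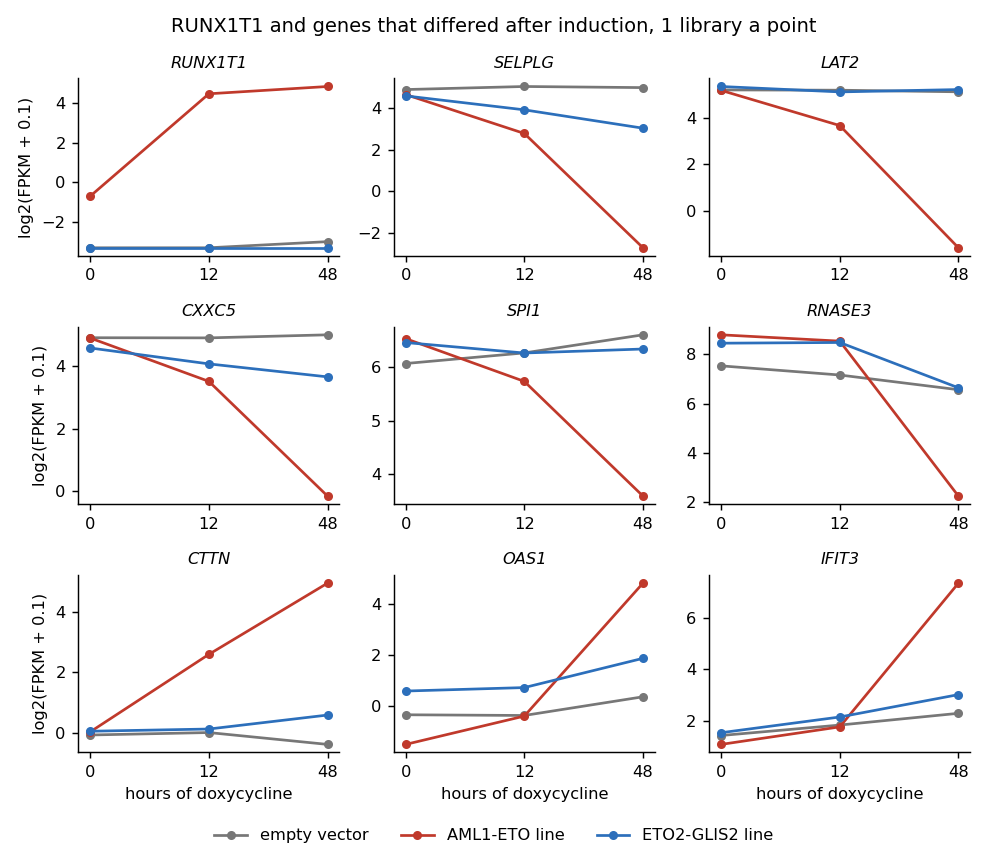
Level of RUNX1T1 and of 8 genes that responded after induction, as log2(FPKM + 0.1) (y axis) against hours of doxycycline (x axis), 1 library a point and 1 colour a line. At 0h the AML1-ETO line was above the others for RUNX1T1 (0.512 FPKM against 0) and near them for SELPLG, LAT2, CXXC5 and CTTN, and the lines parted after doxycycline.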

How the data were processed

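RNA-seq was made from U937 lines with and without doxycycline, 1 library per condition. Per the study's methods, TRIzol RNA was made into TruSeq version 2 libraries, which do not mark strand, and reads were aligned to hg38. The submitters' processing notes list HISAT2 2.0.5, SAMtools 1.7, HTSeq 0.9.1 and DESeq2 1.22.2. The authors deposited FPKM per Ensembl gene; no counts, replicates or tests were used. Values were compared as log2((AE + 0.1)/(CTR + 0.1)) for genes with a mean of at least 1 FPKM, and 2-fold differences were counted without a test.

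Because FPKM is whole reads divided by length and library total, library totals and reads were recovered (tolerance 0.02 reads) for 23780 of 23889 genes above 0 in at least 3 libraries (99.5%); very high genes stayed unresolved. Clopper-Pearson 95% intervals on reads cover counting error only, and PCR duplicates are not independent molecules. Recovery and calling were tested on simulated data.

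Gene types came from GENCODE by Ensembl ID, and positions and promoters from RefSeq GRCh38.p14 by symbol. Members, gene lists and named genes were chosen with earlier results of these data known. Named genes were a set from the study and from earlier results (in part not reported here), the up to 12 protein-coding genes per direction of at least 5 FPKM with the largest 0h difference among those past 2-fold at all 3 times, the leading members of each list, and the 5 with the largest late change per direction. The rule of a 4-fold gap between every AE and every CTR library, FCAR and G3BP1 were chosen after values were seen. Alternatives were other pseudocounts, filters, fold, scaling and reference line. Python 3.11.15, pandas 2.3.3, numpy 2.4.6 and scipy 1.17.1 were used.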

Additional observations from a re-analysis of the deposited data

How the results depend on the processing

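No paired analysis was possible because each condition is 1 library, so the groups share fewer than 2 replicate numbers; the 12h and 48h libraries differ from 0h in treatment and were set beside it instead. The 6 counts (genes higher in AE 0h, lower in AE 0h, higher at all 3 times, lower at all 3 times, late-falling genes lower at 0h, late-rising genes higher at 0h) were 281, 209, 66, 28, 43 and 55. They depended mainly on how low genes were treated. With a pseudocount of 1 FPKM they were 146, 105, 31, 9, 16 and 22. With a mean of at least 5 FPKM they were 31, 14, 12, 6, 1 and 9, and with no filter 2127, 1829, 251, 127, 386 and 630. A fold threshold of 3 gave 121, 98, 22, 9, 17 and 10. Protein-coding genes alone, an alternative added after seeing the data, gave 101, 29, 50, 15, 6 and 27. Asking also that the counting interval exclude equal levels, likewise added, left 183 and 110 genes at 0h. A pseudocount of 0.01 FPKM and rescaling by the median ratio kept all 6 within 1.5 times. With the ETO2-GLIS2 line as reference, 427 genes were higher at 0h and 44 lower at all 3 times, and the other 4 counts stayed within 1.5 times. For RUNX1T1 the log2 ratio at 0h was 2.61, and 5.71 with a pseudocount of 0.01, 0.60 with 1 FPKM and 2.68 after rescaling; the read count does not change. Of the named genes past 2-fold, IFI6 (-0.42) and CCND3 (0.10) turned direction against the ETO2-GLIS2 line and none did under another setting. With 1 library a side, no library could be left out, and a 2-fold difference in a gene of few reads can lie within counting error.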

Other observations

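Several single genes outside the lists' main trends also differed before induction. XAGE1B, a cancer-testis antigen, was at 8.62 FPKM in AE 0h, 0.826 FPKM in CTR 0h and 0.614 FPKM in EG 0h, and its log2 ratio over the empty vector line was 3.23 before doxycycline, then 1.08 and, in the 48h libraries, -0.34; it belongs to a family of near-identical copies, so its count is uncertain. It was the only one of 33 cancer-testis antigens with a mean of at least 1 FPKM. NCAM1 (CD56), an adhesion molecule that t(8;21) blasts often carry, was lower in the uninduced AML1-ETO line, at 0.440 FPKM against 1.58 FPKM, with EG 0h at 0.153 FPKM. It was the only 1 of 12 compared markers of t(8;21) leukaemia past 2-fold, where 0.305% of compared protein-coding genes were 2-fold lower. The median of that list was -0.01, with 5 genes above 0 and 7 below. CD74, the invariant chain of MHC class II, was at 41.3 FPKM in AE 0h, 22.2 FPKM in CTR 0h and 19.2 FPKM in EG 0h, inside 2-fold.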
